A study of Mus musculus with 6 samples.

Results

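Genes of NAD metabolism and nicotinamide methylation were examined in primary mouse hepatocytes cultured with or without the inflammatory cytokine IL-1β. The 10 genes, Nampt, Nmrk1, Nmnat1, Acmsd, Qprt, Nadsyn1, Nadk, Nnmt, Sirt1 and Sirt3, were taken by their symbols from a table of 23282 genes, and all 10 had enough counts to be among the 11657 genes tested. The hepatocytes came from livers of mice labelled C57BL6/N, the genotype of both groups, and the cells are a culture outside the liver. The control group (3 samples) was left untreated and the IL-1β group (3 samples) received recombinant IL-1β protein for 24 h, at a dose that the sample labels do not give. RNA was sequenced by QuantSeq, a method whose reads come from near the poly(A) tail of mRNA. The labels do not say whether the 3 samples of a group came from separate animals or cultures, so the p-values measure the spread between these samples, which may be technical.

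NAD carries electrons in metabolism and is consumed by sirtuins and poly(ADP-ribose) polymerases, so cells keep remaking it. The liver can build it from tryptophan through kynurenine and quinolinate, from nicotinic acid, or by salvage of nicotinamide, and NAD kinase turns part of it into NADP. Nicotinamide that is not salvaged can be methylated by NNMT, which spends S-adenosylmethionine, the main methyl donor of the cell.

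After IL-1β, Nadk and Nampt rose, Qprt fell, and Nnmt, Acmsd, Nadsyn1, Nmrk1, Nmnat1, Sirt1 and Sirt3 did not pass the test. Nadk, the NAD kinase, was 1.64-fold higher, Nampt, the rate-limiting enzyme of nicotinamide salvage, was 1.29-fold higher, and Qprt, which feeds quinolinate into NAD synthesis, was at 0.345 of its control level. Thus 3 of the 10 genes had an adjusted p below 0.05 in edgeR's quasi-likelihood test, 2 higher and 1 lower, and 5 had an unadjusted p below 0.05, which 23.6% of all genes tested also had. Over all genes tested, 13.4% had an adjusted p below 0.05, 6.97% higher and 6.44% lower after IL-1β, and with 10 genes the count of 3 is not far from that background. The median log2 fold change of the 10 genes was -0.04, beside -0.002 over all genes tested.

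**Figure D1:**
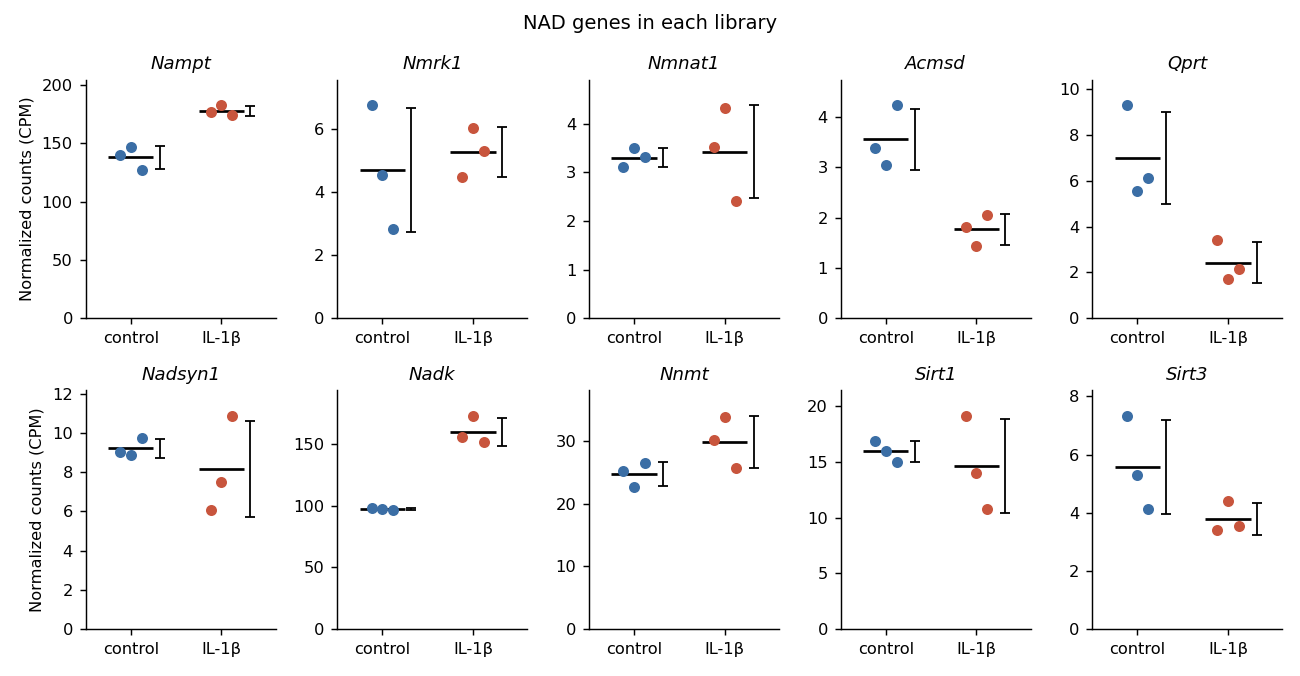
Normalized counts (CPM, vertical axis from 0) of each NAD gene in the 3 control (blue) and 3 IL-1β (red) libraries, with the group mean as a bar and the SD beside it. The IL-1β points lie wholly above the control points for Nampt and Nadk and wholly below them for Qprt and Acmsd.

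The libraries held 9538741 to 11105408 counts, and 3 counts, taken as the limit of detection, correspond to 0.269 to 0.321 CPM (counts scaled to library size with TMM normalization). This limit covers counting error only. Of the hepatocyte markers, Alb (13476 to 16574 CPM), Hpx, Apoa1 and Ttr were abundant in every library, whereas Cps1 had 18 to 33 counts and Ass1 3 to 13. The 13 Kupffer cell and macrophage markers summed to 215 to 246 CPM in the controls and 218 to 248 CPM after IL-1β, mostly from Cd68. Of the 10 tested, 0 passed, and 1 was higher when control replicate 1 was left out. Their log2 fold changes were positive in 7 and negative in 3, with a median of 0.26. The Kupffer cell marker Timd4 had 0 or 1 count per library, whereas others of the same list had more. Cd5l had 150 to 224 counts, Marco 32 to 68 and Clec4f 0 to 27. The 8 leukocyte markers in the table summed to 2.06 to 4.04 CPM in the controls and 4.81 to 9.76 CPM after IL-1β. S100a8 had no count in any control library and 19 to 51 counts after IL-1β, and Itgam had 0, 1 and 0 counts in the controls and 6, 9 and 15 after IL-1β, without overlap. Ptprc, the most abundant leukocyte marker in the controls, had 42, 20 and 35 counts there and 18, 32 and 38 after IL-1β. Its groups overlapped, and its log2 fold change was -0.11 (adjusted p = 0.918 from edgeR). S100a9, Cd3e and Cd79a had none in any library. Endothelial markers summed to 60.7 to 69.3 and 56.7 to 58.4 CPM, stellate cell and fibroblast markers to 21.3 to 25.4 and 22.2 to 28.2 CPM, and cholangiocyte markers to 357 to 379 and 246 to 250 CPM, in controls and after IL-1β, respectively. The cholangiocyte sum came almost wholly from Sox9 (log2 fold change not past the test), Spp1 and Cldn4, and Krt19, Krt7 and Epcam had 0 to 6 counts per library. Of these lists, 3 of 8 endothelial (1 higher, 2 lower), 0 of 2 stellate, 2 of 3 cholangiocyte (both lower) and 1 of 2 leukocyte markers tested passed. Over all genes tested, 13.4% passed. Without a filter on low counts, 2 of 5 leukocyte markers were higher. The part of these cells in the changes of the NAD genes was not tested, and in bulk RNA fewer cells of a type and less RNA per cell cannot be told apart.

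The windows around the annotated starts of the genes that passed the test are printed here so that their composition can be compared. They are RefSeq windows on GRCm38.p6, 250 bases before to 50 bases after a start, printed 5′ to 3′ on the strand of the gene, and 9 of the 10 genes matched, with 12 windows. Capitals mark matches on either strand to a κB decamer (by name), C/EBP (TTGCNNAA), STAT (TTCNNNGAA), E-box (CACGTG), AP-1 (TGANTCA) and HNF4 (CAAAGTCC) motifs. Nampt lies at chr12:32820085-32820384 on the plus strand, Nadk has starts at chr4:155562131-155562430 and chr4:155563565-155563864 on the plus strand, and Qprt lies at chr7:127121980-127122279 on the minus strand.
Nampt: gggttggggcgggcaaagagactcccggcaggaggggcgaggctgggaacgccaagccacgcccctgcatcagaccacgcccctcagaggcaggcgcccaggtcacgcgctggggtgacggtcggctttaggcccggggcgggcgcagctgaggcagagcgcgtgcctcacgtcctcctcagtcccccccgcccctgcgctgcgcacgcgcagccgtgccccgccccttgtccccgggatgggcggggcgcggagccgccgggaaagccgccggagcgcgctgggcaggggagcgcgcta
Nadk, first start: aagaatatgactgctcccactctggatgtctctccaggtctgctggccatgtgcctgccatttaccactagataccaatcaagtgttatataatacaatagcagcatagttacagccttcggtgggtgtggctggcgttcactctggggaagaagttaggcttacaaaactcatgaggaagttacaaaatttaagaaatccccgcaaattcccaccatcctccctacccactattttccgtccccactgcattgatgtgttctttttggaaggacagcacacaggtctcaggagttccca
Nadk, second start: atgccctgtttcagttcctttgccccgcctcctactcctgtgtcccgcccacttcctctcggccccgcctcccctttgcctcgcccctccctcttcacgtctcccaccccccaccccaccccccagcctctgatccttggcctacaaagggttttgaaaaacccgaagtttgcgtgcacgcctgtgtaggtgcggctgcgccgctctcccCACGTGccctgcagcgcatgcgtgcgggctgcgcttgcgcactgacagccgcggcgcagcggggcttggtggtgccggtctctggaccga
Qprt: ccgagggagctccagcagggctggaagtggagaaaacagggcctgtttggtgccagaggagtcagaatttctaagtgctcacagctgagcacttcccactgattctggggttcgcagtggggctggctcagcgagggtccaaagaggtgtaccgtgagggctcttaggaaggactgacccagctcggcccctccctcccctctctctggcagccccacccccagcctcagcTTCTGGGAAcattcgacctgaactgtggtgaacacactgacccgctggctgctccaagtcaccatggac

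The Nampt window has a GC content of 76.3% and 36 CpG dinucleotides, where the median of 32817 mouse windows is 52.7% and 7. The 2 Nadk windows differ from each other, with 46.7% and 4 CpG at the first start and 67.0% and 24 CpG at the second. The Qprt window has 60.3% and 7 CpG. The second Nadk window holds an E-box whose first base is at position -40 from the start, a motif found in 7.15% of all windows, and the Qprt window holds a STAT match, TTCTGGGAA, at position -19, a motif found in 8.29%. Outside the printed windows, Sirt1 has E-boxes at positions -115 and -43, and Sirt3 has a κB decamer on the opposite strand at position -53, a motif found in 8.46%. The C/EBP, AP-1 and HNF4 motifs, which occur in 10.8%, 7.81% and 1.42% of all windows, were in none of the 12 windows. Such matches are descriptions of letters, not binding sites.

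Among the genes of salvage, Nampt encodes nicotinamide phosphoribosyltransferase, which joins nicotinamide to a ribose phosphate to give nicotinamide mononucleotide. The GRCm38 position of Nampt is chr12:32820335-32853369, plus strand. Its level was 140, 147 and 127 CPM in the control libraries and 177, 183 and 174 CPM in the IL-1β libraries. All IL-1β libraries were above all controls, and the gap between the groups exceeded the spread within either. The means were 138 ± 9.81 CPM (SD, n = 3) and 178 ± 4.21 CPM (SD, n = 3). On the log2 scale the difference was 0.37, with a standard error of 0.072 and an adjusted p of 7.3e-04 in edgeR. In limma on log2(CPM + 1) the log2 fold change was also 0.37, but the adjusted p was 0.0566. With a pseudocount of 0.1, it was 0.0652, so the call of Nampt depended on the test. In GENCODE M21, the noncoding gene Gdap10 overlaps Nampt on the same strand outside its last 500 bases, with 70, 98 and 82 counts in the controls and 90, 144 and 117 after IL-1β (adjusted p = 0.0882 from edgeR).

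Nmrk1 and Nmnat1 act around the same mononucleotide. Nmrk1, a kinase that makes it from nicotinamide riboside, lies on chromosome 19 from 18632016 to 18652184 on the plus strand. It was at 6.76, 4.57 and 2.82 CPM in the controls and 4.49, 6.05 and 5.30 CPM after IL-1β. The control libraries spanned the IL-1β libraries on both sides, and the log2 fold change of 0.16 had a 95% interval of -0.47 to 0.79 (adjusted p = 0.824 from edgeR). Nmnat1, the nuclear adenylyltransferase that completes NAD, lies on chromosome 4 from 149468787 to 149485142 on the minus strand. Its level was 3.10, 3.49 and 3.33 CPM in the controls and 3.53, 4.32 and 2.42 CPM after IL-1β. The groups overlapped, and the log2 fold change was 0.05 with an interval of -0.65 to 0.74 (adjusted p = 0.96 from edgeR). At 26 to 45 counts per library for Nmnat1 and 28 to 72 for Nmrk1, changes of the size seen for Nampt lie within these intervals and were not detectable.

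On the route from tryptophan, Qprt encodes quinolinate phosphoribosyltransferase, the step that commits quinolinate to NAD. It lies on chromosome 7 from 127107770 to 127122029 on the minus strand. Its counts were 99, 62 and 61 in the control libraries and 32, 18 and 23 in the IL-1β libraries, or 9.30, 5.55 and 6.15 CPM against 3.42, 1.73 and 2.14 CPM. The groups did not overlap, although control replicate 1 stood above the other controls and IL-1β replicate 1 above the other treated libraries. The log2 fold change was -1.53 with a standard error of 0.32 and an adjusted p of 0.0014 in edgeR, and with a 95% interval of -2.197 to -0.87. Without control replicate 1, the log2 fold change was -1.27 (adjusted p = 0.0105), so the decrease did not rest on that library. Of the windows of 75 bases in the last 500 bases of its annotated transcripts, 1.78% also occur in transcripts of other genes.

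Acmsd encodes a decarboxylase that diverts the precursor of quinolinate away from NAD. It lies on chromosome 1 from 127729413 to 127767564 on the plus strand. It had 36, 34 and 42 counts in the controls and 17, 15 and 22 after IL-1β, or 3.38, 3.04 and 4.23 CPM against 1.82, 1.44 and 2.05 CPM. Every IL-1β library was below every control, and the log2 fold change was -0.998 with a 95% interval of -1.76 to -0.23. The adjusted p in edgeR was 0.0812, so Acmsd did not pass. It passed in limma (adjusted p = 0.0221 with a pseudocount of 1 and 0.0294 with 0.1) and in edgeR when at least 10 counts were required in every sample (0.0426). The antisense gene 2900009J06Rik overlaps the end of Acmsd on the opposite strand. It had 98, 94 and 75 counts in the controls and 24, 57 and 64 after IL-1β, and its log2 fold change was -0.84 (edgeR adjusted p = 0.0396). Whether the counting used strand is not given in the sources used here, so reads of Acmsd and of this gene cannot be told apart with certainty.

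**Figure D2:**
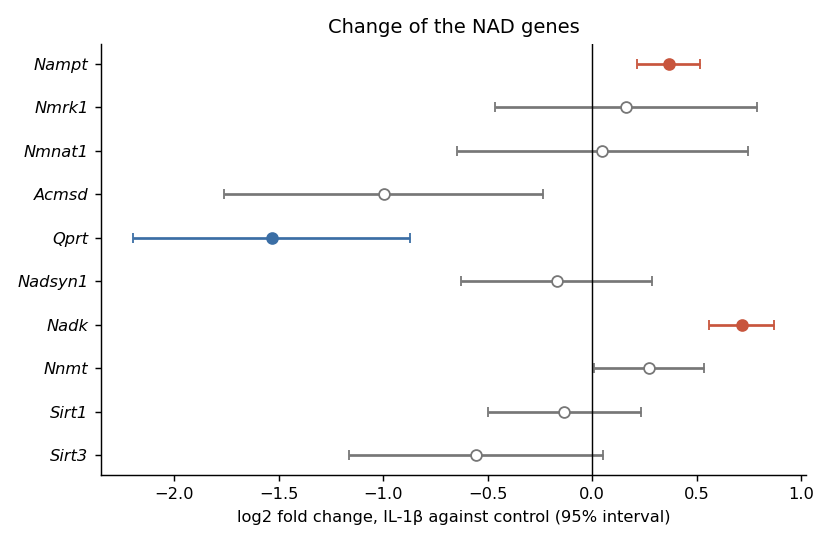
Log2 fold change of each NAD gene after IL-1β against control (horizontal axis), with the 95% interval from edgeR as a bar. Filled points had an adjusted p below 0.05 (red higher, blue lower) and open points did not. The intervals of Nadk, Nampt and Qprt lie well away from 0, and those of Nnmt and Acmsd also exclude 0 before adjustment over all genes.

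Nadsyn1 encodes NAD synthetase, the last step from nicotinic acid and quinolinate alike, and lies on chromosome 7 from 143795591 to 143822852 on the minus strand. Its level was 9.02, 8.86 and 9.77 CPM in the controls and 6.09, 7.49 and 10.9 CPM after IL-1β. The IL-1β libraries lay on both sides of the controls and varied more, with a coefficient of variation of 30.2% against 5.29%. The log2 fold change was -0.17 with a 95% interval of -0.63 to 0.29 (adjusted p = 0.723 from edgeR).

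Nadk encodes the cytosolic NAD kinase, which makes NADP, the cofactor of reductive synthesis and of glutathione recycling. It lies on chromosome 4 from 155562392 to 155591001 on the plus strand. It was at 98.3, 97.6 and 96.8 CPM in the control libraries and 156, 173 and 152 CPM in the IL-1β libraries. The controls lay close together and the lowest treated library was far above them. The means were 97.6 ± 0.72 CPM (SD, n = 3) and 160 ± 11.3 CPM (SD, n = 3). The difference on the log2 scale was 0.72 ± 0.075 (standard error), with an adjusted p of 8.7e-08 in edgeR. Nadk passed the test under each of the 14 alternative settings and samplings, with log2 fold changes from 0.66 to 0.76 and a highest adjusted p of 0.007 in limma.

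Nnmt, nicotinamide N-methyltransferase, lies on chromosome 9 from 48591890 to 48605077 on the minus strand. Its level was 25.2, 22.6 and 26.5 CPM in the controls and 30.1, 33.9 and 25.7 CPM after IL-1β. Replicates 1 and 2 of IL-1β were above all controls and replicate 3 was among them. The means were 24.8 ± 1.96 CPM (SD, n = 3) and 29.9 ± 4.13 CPM (SD, n = 3), and the log2 fold change of 0.27 had an unadjusted 95% interval of 0.0095 to 0.53 and an adjusted p of 0.191 from edgeR. The upper end of this interval corresponds to a smaller change than that measured for Nadk, so a rise of Nnmt as large as that of Nadk was outside the interval. Nnmt did not pass under any of the 14 alternatives, where its adjusted p was 0.094 to 0.553.

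Sirt1 and Sirt3 encode NAD-dependent deacetylases of the nucleus and of mitochondria. Sirt1 lies on chromosome 10 from 63319005 to 63339032 on the minus strand and had 16.91, 16.02 and 15.01 CPM in the controls and 19.14, 14.03 and 10.78 CPM after IL-1β. The IL-1β libraries surrounded the controls, with a log2 fold change of -0.13 and a 95% interval of -0.50 to 0.24 (adjusted p = 0.733 from edgeR). Sirt3 lies on chromosome 7 from 140863663 to 140882309 on the minus strand and had 7.33, 5.28 and 4.13 CPM in the controls and 3.42, 4.42 and 3.53 CPM after IL-1β. Its groups overlapped only through IL-1β replicate 2, which exceeded control replicate 3, and the log2 fold change was -0.56 with an interval of -1.17 to 0.051 (adjusted p = 0.265 from edgeR). The end of Sirt3 is overlapped on the opposite strand by Ric8a, for which no counts are listed under that symbol. As for Acmsd, reads of Sirt3 and of this gene cannot be told apart with certainty.

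**Figure D3:**
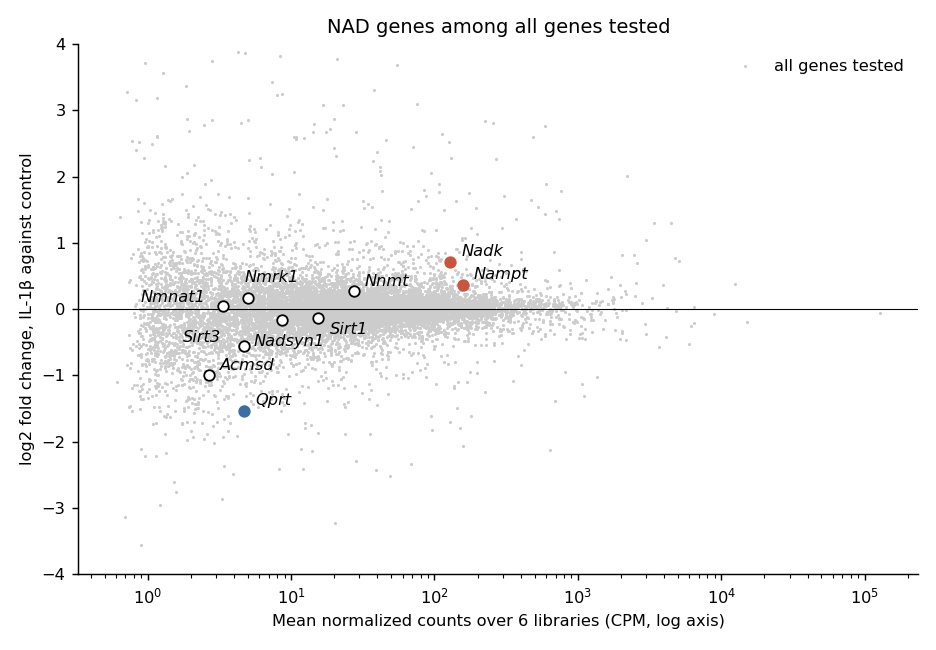
Log2 fold change after IL-1β (vertical axis) against the mean CPM over the 6 libraries (horizontal log axis) for all genes tested (grey) and the NAD genes (circles, filled where the adjusted p was below 0.05, red higher and blue lower). The axis ends at 4 in either direction and leaves out 21 genes beyond it. Nadk and Nampt lie at the upper side of the cloud at their level, whereas the open circles of Nmrk1, Nmnat1, Nadsyn1 and Sirt1 lie inside it.

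In 4 of the 10 genes the groups did not overlap, 2 higher (Nampt and Nadk) and 2 lower (Qprt and Acmsd), and over all genes tested this was so in 28.2%. For these 4 genes the exact permutation test of the means gave a two-sided p of 0.1, the smallest that 3 samples against 3 can give. With each library left out in turn, Nadk, Nampt and Qprt each kept an adjusted p below 0.05, the highest being 6.8e-06, 0.0098 and 0.0163 in that order, and no other of the 10 genes fell below it.

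**Figure D4:**
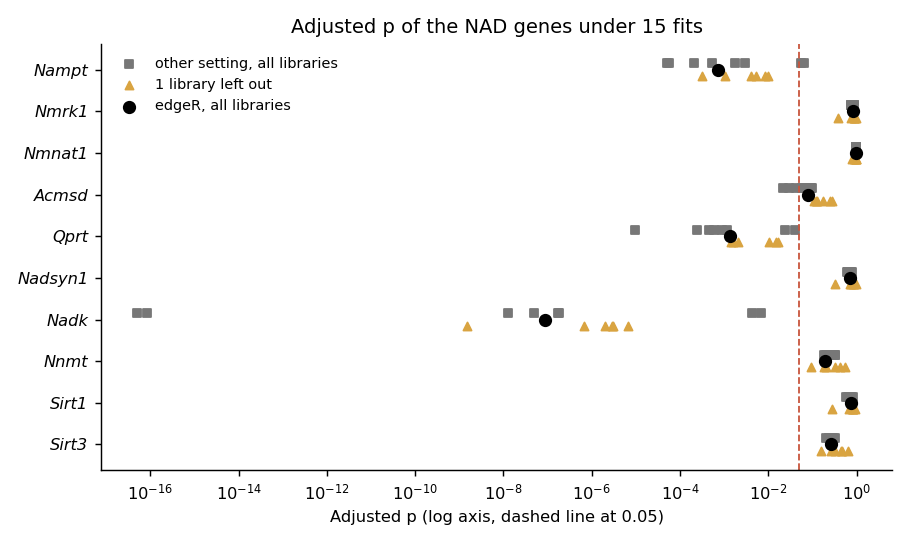
Adjusted p (horizontal log axis, dashed line at 0.05) of each NAD gene under 15 fits, namely edgeR on all libraries (black), 8 other settings (grey squares) and 6 fits with 1 library left out (yellow triangles). The points of Nadk and Qprt all lie left of the line, those of Nampt and Acmsd fall on both sides, and those of the other 6 genes all lie to its right.

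The 10 genes were then set beside other genes of the same routes, drawn up in 8 lists by role. Of 78 genes in these lists, 69 were tested, and 5 were higher and 8 lower at an adjusted p below 0.05, or 18.8% beside 13.4% of all genes. Without the 10 genes above, the figures were 10 of 59, or 16.9%, with 3 higher and 7 lower.

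In the tryptophan list, 3 of the 10 genes tested were lower (Qprt, Afmid and Kmo) and 0 higher, beside 6.44% and 6.97% over all genes tested. In this list 7 had an unadjusted p below 0.05 in edgeR (23.6% over all genes tested), of which Kyat3 was higher and the others lower. The median log2 fold change was -0.54, beside -0.002 over all genes. DESeq2 called the same 3 genes, whereas limma with a pseudocount of 1 called Qprt, Afmid and Acmsd and not Kmo. With 1 library left out, 2 to 4 genes of the list were lower and 0 higher. The list median stayed between -0.60 and -0.46 under the alternatives with all libraries. The list includes Qprt and Acmsd from above, and enzymes that lead away from NAD, Acmsd among them. Its median is thus not that of the steps to NAD alone. Afmid, the formamidase that releases kynurenine, fell from 25.3 ± 1.46 to 11.1 ± 1.88 CPM (SD, n = 3 per group), a log2 fold change of -1.19 (adjusted p = 2.2e-06 from edgeR). Kmo, the kynurenine hydroxylase, had 9.68, 7.70 and 5.14 CPM in the controls and 5.45, 2.59 and 2.79 CPM after IL-1β, so that IL-1β replicate 1 overlapped control replicate 3. Its log2 fold change was -1.07 (adjusted p = 0.0202 from edgeR), and it lost the call without control replicate 1 (0.0851), control replicate 2 (0.0586), IL-1β replicate 2 (0.127) or IL-1β replicate 3 (0.127), and in limma (0.116). For Tdo2, which opens the route, the log2 fold change was -0.35 (adjusted p = 0.0895 from edgeR) and passed with scaling by total counts (0.0402) and without IL-1β replicate 2 (0.0391). Kyat3, an aminotransferase that leads kynurenine aside, had 0.32 (adjusted p = 0.0859). Haao, another gene of the list, was not lower, with a log2 fold change of 0.11 (adjusted p = 0.889 from edgeR). Ido2 had 32, 21 and 6 counts in the controls and 1, 3 and 1 after IL-1β, too few to be tested. Beside this list, 6 of 11 hepatocyte markers tested were lower and 1 higher in edgeR, with a median log2 fold change of -0.27. The count of lower markers was 3 without IL-1β replicate 1, 4 without IL-1β replicate 3 and 1 in limma with either pseudocount. Their part in the change of the list was not tested.

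Of 7 salvage genes tested, 2 were higher (Nampt and Pnp) and 1 lower (Nt5e), beside 6.97% and 6.44% over all genes tested. Pnp, a nucleoside phosphorylase that can split nicotinamide riboside, was at 68.3 ± 3.15 CPM in the controls and 111 ± 1.64 CPM after treatment (SD, n = 3 each), a log2 fold change of 0.70 (adjusted p = 3.5e-07 from edgeR), and its close copy Pnp2 had 2 to 11 counts per library, between which reads may have been split. Nt5e, the ectonucleotidase CD73, had 21, 50 and 33 counts in the controls and 8, 12 and 17 after IL-1β, and its log2 fold change was -1.43 (adjusted p = 0.0274). Its call was lost without control replicate 2 (0.2), control replicate 3 (0.0762), IL-1β replicate 1 (0.135) or IL-1β replicate 2 (0.107), and in limma (0.0631). Slc25a51, the mitochondrial NAD carrier, differed by 0.25 on the log2 scale (adjusted p = 0.053 from edgeR), and passed when at least 10 counts were required in every sample (0.047) and in the fit blocked on replicate number (0.0457). Neither Naprt, which takes in nicotinic acid, nor Nadsyn1 passed (0 of 2 in edgeR, DESeq2 and limma, and 0 at an unadjusted p below 0.05).

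In NADP turnover, 2 of 8 genes tested were higher (Nadk and Noct) and 1 lower (Nnt), beside 6.97% and 6.44% over all genes tested. Noct, listed under its older symbol Ccrn4l, encodes nocturnin, a phosphatase that returns NADP to NAD, the opposite direction to that of Nadk. It was at 16.9, 19.9 and 21.6 CPM in the controls and 69.4, 66.6 and 64.7 CPM after IL-1β, without overlap, and its log2 fold change of 1.78 ± 0.11 (standard error) had an adjusted p of 3.7e-12 in edgeR. The transcripts of Nadk and Noct were thus both higher. The related gene Nadk2, also in this list, did not pass, with a log2 fold change of -0.009 (adjusted p = 0.984 from edgeR). Nnt, the mitochondrial transhydrogenase that reduces NADP, was lower, with a log2 fold change of -0.58 (adjusted p = 0.0057 from edgeR), and lost its call without IL-1β replicate 2 (0.0604) and in limma (0.0858).

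**Figure D5:**
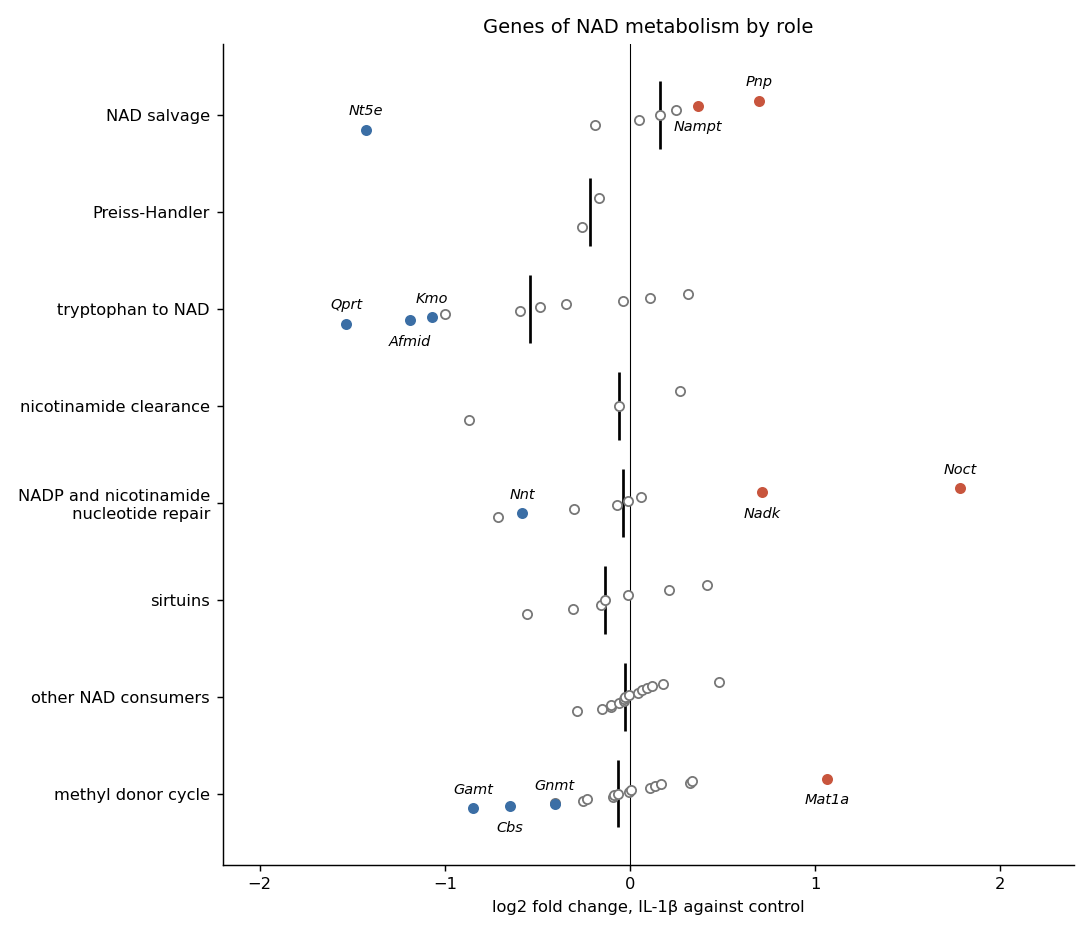
Log2 fold change after IL-1β (horizontal axis) of the genes tested in each of 8 lists of NAD metabolism (rows), with the list median as a vertical bar. Filled and named points had an adjusted p below 0.05 in edgeR (red higher, blue lower). The tryptophan list has its median at -0.54, and no point of the sirtuins or of the other NAD consumers is filled.

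Among the enzymes that consume NAD, none of the 7 sirtuins and none of the 15 other genes tested, mainly poly(ADP-ribose) polymerases, passed in edgeR, and DESeq2 and limma also gave 0. At an unadjusted p below 0.05, which 23.6% of all genes tested had, there was 1 sirtuin (Sirt2, log2 fold change 0.21). There were 2 others, Parp16 (0.48, adjusted p = 0.0598) and Parp1 (-0.29, adjusted p = 0.0817). Parp16 passed without a filter on low counts (0.0451) and without control replicate 1 (0.0432) or control replicate 3 (0.0498), and Parp1 with upper-quartile scaling (0.0488) and total-count scaling (0.0347). Cd38, an NAD glycohydrolase, had 11 to 23 counts in each library, and Sarm1 had none in any library.

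Methylation of nicotinamide draws on the methyl donor cycle. Of its 17 genes tested, 1 was higher and 3 were lower, beside 6.97% and 6.44% over all genes tested. Mat1a, which makes S-adenosylmethionine in hepatocytes, was at 101 ± 10.1 CPM in the controls and 212 ± 5.21 CPM after treatment (SD, n = 3 each), a log2 fold change of 1.07 (adjusted p = 9.9e-11 from edgeR). The related gene Mat2a was more abundant than Mat1a, at 426 to 471 CPM in the controls and 474 to 516 CPM after IL-1β. Mat2a did not pass, with a log2 fold change of 0.14 (adjusted p = 0.2 from edgeR). The rise of Mat1a was thus not shared by the more abundant transcript to the same extent. Cbs, which draws homocysteine out of the cycle, fell by 0.65 on the log2 scale (adjusted p = 2.9e-05 from edgeR). Gnmt and Gamt, methyltransferases for glycine and guanidinoacetate, had log2 fold changes of -0.41 (adjusted p = 0.0068) and -0.85 (adjusted p = 0.041). Gnmt lost its call without control replicate 2 (0.0684), IL-1β replicate 1 (0.0602) or IL-1β replicate 2 (0.0728) and in limma (0.109), and Gamt without control replicate 2 (0.23), IL-1β replicate 2 (0.142) or IL-1β replicate 3 (0.153) and in limma (0.0573). The aldehyde oxidases Aox1 and Aox3, which oxidize methylnicotinamide, did not pass, with log2 fold changes of -0.06 (adjusted p = 0.845) and -0.87 (adjusted p = 0.248), and with Nnmt they made 0 of 3 in edgeR, DESeq2 and limma, with 1, Nnmt, at an unadjusted p below 0.05 in edgeR.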

How the data were processed

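The 6 libraries of primary mouse hepatocytes (3 control, 3 IL-1β) were grouped by their labels. Per the labels, the authors sequenced QuantSeq 3′ libraries with single-end reads of 75 nt and aligned them with Bowtie2 to mm10 (GRCm38), and the counting tool and the handling of strand and of multiply mapped reads are not given in the sources used here. The deposited raw counts per gene were used without change. The authors' log2 normalized values (6 columns), group averages, fold changes and p-values were not used.

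Counts were fitted over the whole table in R 4.3.3 with edgeR 4.0.16 (filterByExpr, TMM, quasi-likelihood test, Benjamini-Hochberg adjustment over 11657 genes, called below 0.05), tested on simulated data beforehand. The standard error is the log2 fold change divided by the square root of F. Alternatives used DESeq2 1.42.0, limma 3.58.1 on log2(CPM + 1) or log2(CPM + 0.1), other scalings and filters, the replicate number as a block, and each library left out. Exact permutation tests used scipy 1.17.1. Overlaps and windows of 75 bases came from GENCODE M21 (GRCm38), and promoter sequences from RefSeq (GRCm38.p6). Named were all 10 genes, at most 4 others per NAD list with the smallest adjusted p, and abundant markers. Others were named after their values were seen (markers at or near 0, overlapping genes, Itgam, Clec4f, Ido2, Cd38, Sarm1, Nadk2, Mat2a and Haao). The 10 genes and all lists were chosen with earlier results of these data known. Total counts were 9538741 to 11105408 per library.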

Additional observations from a re-analysis of the deposited data

How the results depend on the processing

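Nadk and Qprt passed the test in the same direction under the 8 alternatives with all libraries and the 6 with 1 left out. The number of the 10 genes called was 3 or 4 under the alternatives with all libraries and 3 with each library left out, though in limma Acmsd replaced Nampt. Over all genes, the 1563 calls became 931 in limma on log2(CPM + 1) and 802 on log2(CPM + 0.1), the cause of which was not tested, and 1131 to 1596 with each library left out. With total-count scaling 39.6% of 1670 calls were higher, beside 52.0% of 1563 with TMM, and the median change over all genes (log2) went from -0.002 to -0.06. The labels share replicate numbers between groups. Deviations of same-numbered libraries correlated by 0.062, 0.0079 and 0.0038, and those of the other pairs by -0.078 to 0.076. With 3 libraries per group, such values cannot decide whether same-numbered libraries share an origin, which the labels do not give. In the fit with a replicate block, 3 of the 10 genes and 1671 of all genes were called, and the same 3 genes, Nadk, Nampt and Qprt, were among them. Values near 0 changed sign. Nmnat1 was at -0.0047 with total-count scaling, and leaving out each library gave -0.16 to 0.25 for Nmnat1, -0.43 to 0.0039 for Nadsyn1, -0.099 to 0.51 for Nmrk1, -0.36 to 0.052 for Sirt1 and -0.14 to 0.0094 for Aox1. At 26 to 45 counts per library, the 95% interval of Nmnat1 ran from -0.65 to 0.74.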
